A study of Mus musculus with 104 samples.

Results

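D3 is a GalNAc-siRNA directed at the mRNA of Hao1, and the data described here are the 4 libraries of primary mouse hepatocytes (PMH) labelled with D3 at 10 nM, set against the 8 libraries labelled mock, out of 104 libraries in the series. The members were chosen by these treatment labels alone. D3 carries a glycol nucleic acid (GNA) isocytidine, GNA-isoC, at position 5 of the guide strand. D2, with GNA-C at the same position, and D1, the parent without GNA, have the same base sequence and were each sequenced in 4 libraries at 10 nM. D3 was also given at 0.1, 1 and 50 nM, with 4 libraries per dose. All cells, mock included, were purchased PMH, and the same lipid transfection procedure in the wells of a plate, with harvest after 24 h, is given for every library. What the mock wells received in place of siRNA, and the strain, genotype, age, sex and number of animals behind the cells, are not given in the sources used here. Neither is it stated whether libraries of a group came from separate cultures, so that p-values measure the spread between these libraries, which may be technical. The question put to these libraries was how far a GNA isonucleotide changes the specificity of an siRNA, and each gene was therefore compared with mock, with D2 and with D1.

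Hao1 encodes hydroxyacid oxidase, also called glycolate oxidase, a peroxisomal liver enzyme that oxidizes glycolate to glyoxylate, the precursor of oxalate. A GalNAc ligand directs an siRNA to the asialoglycoprotein receptor of hepatocytes, although here delivery was by transfection. Once the guide strand is loaded into an Argonaute protein, a fully complementary mRNA is cleaved, and mRNAs that pair only with the seed of the guide, most often in the 3′-UTR, can be repressed in the manner of microRNA targets. A GNA nucleotide has a shorter, acyclic backbone unit, and isocytosine differs from cytosine in that its amino and carbonyl groups are exchanged.

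In the GRCm39 assembly the Hao1 target is chr2:134340220-134340242, read from the minus strand, and belongs to the coding part of exon 8 in transcript ENSMUST00000028704.4. It is printed here as the reference for every partial match discussed later, with the bases that face guide positions 2 to 8 in capitals. The G in the middle of the capitals faces position 5, which holds the GNA nucleotide in D2 and D3. Below it stand 4 sites in 3′-UTRs of mRNAs that were lower with D3, chosen as examples after the values had been seen, in which the capitals mark the match. Elovl6 and Rnf115 hold the complete seed match followed by an A, and Msmo1 and Ccnb1 hold a match with A in place of the G that faces position 5. The 3′-UTR of Elovl6 also holds a match of this second kind, at chr3:129428382-129428406, so that Elovl6 belongs to both sets.
Hao1 target, mRNA strand: cagaatgtgaaagtcATCGACAa
Elovl6, chr3:129427179-129427204, plus strand: cgaaaaataATCGACAAaagaaaaat
Rnf115, chr3:96697507-96697532, plus strand: tggaattgtATCGACAAccaaatgcc
Msmo1, chr8:65171647-65171671, minus strand: ggaaaattcTCAACAAtaatgtttg
Ccnb1, chr13:100915665-100915689, minus strand: agtctcactATCAACAgataagggt

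The 4 D3 libraries at 10 nM held 5464931, 4692808, 5168910 and 4462177 counts on genes. The mock libraries held between 3409963 and 5308584 counts, with a median of 4927571. Depth did not separate the groups (exact permutation test, two-sided, p = 0.519). Mitochondrially encoded genes took 3.39% ± 0.203 of counts with D3 (SD, n = 4) and 3.10% ± 0.114 in mock (SD, n = 8; exact permutation test, two-sided, p = 0.00808). The ERCC spike-ins, synthetic RNAs added to each sample, took 0.632%, 0.900%, 1.203% and 0.700% of counts in the D3 libraries and 0.453% to 0.790% in the mock libraries, with a median of 0.566%. The groups overlapped, and the mean share was higher with D3 (exact permutation test, two-sided, p = 0.0121). Levels below are CPM, counts scaled to a common library total after TMM normalization, which sets the typical gene to no change (median log2 fold change 0.0029). Scaled to the spike-ins instead, the median of all genes moved to −0.53, and 5548 genes were called lower and 17 higher. Every direction given below is therefore relative to the typical gene, and a log2 increase smaller than about 0.53, called or not, has the opposite sign on the spike-in scale. Without D3 replicate 3, which had the highest spike-in share, the shift was −0.36 and 1179 genes were called lower and 19 higher.

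The libraries carried the markers of hepatocytes. Alb, the most abundant of them, was at 13308 CPM ± 672 in mock (SD, n = 8) and at 15083 CPM ± 554 with D3 (SD, n = 4), and Hnf4a, the transcription factor that maintains hepatocyte identity, was at 249 CPM ± 24.9 and 250 CPM ± 11.3. The urea cycle enzyme Cps1, abundant in liver, was at 4.86 CPM ± 1.08 in mock, and Mki67, a marker of dividing cells, at 171 CPM in mock. Of the 10 hepatocyte markers, Alb, Apoa1 and Asgr1 were called higher with D3 and Tat lower, and their summed level was 17378.5 CPM ± 1181 in mock and 20025 CPM ± 413 with D3. Of 11 lymphocyte markers, 8 had no count in any of the 12 libraries, as had 7 of 12 macrophage markers, 5 of 10 endothelial, 5 of 7 neutrophil and 5 of 7 erythroid markers. Other members were present. Cd14, the most abundant macrophage marker, was at 213 CPM ± 16.5 in mock and 237 CPM ± 21.4 with D3, and no macrophage marker was called. The endothelial marker Stab1 was at 6.91 CPM ± 1.69 and 6.21 CPM ± 2.60, and the erythroid marker Alas2 at 6.67 CPM ± 1.49 and 6.42 CPM ± 1.17. The cholangiocyte list moved with the treatment. Its summed level was 203 CPM ± 9.83 in mock and 250 CPM ± 14.2 with D3, and 4 of 6 tested members were higher, namely Epcam, Spp1, Sox9 and Krt7, while Krt19, the most abundant, was at 113 CPM ± 9.08 and 124 CPM ± 11.96 and did not pass the test (log2 fold change 0.20 and adjusted p = 0.0373 without D3 replicate 3, edgeR). The increase of Krt7 (0.57) lost its call without any one of D3 replicates 1, 3 and 4 or mock replicates 1, 5 and 7, with the smallest value, 0.48, without D3 replicate 3. No cholangiocyte marker was at 0 throughout. The mesothelial marker Msln and the stellate cell marker Reln were lower, with log2 fold changes of −0.56 and −0.58, the former not called without D3 replicate 2 or 3 (−0.48 and −0.52). The part of such cells in the results below was not tested, and in these bulk samples fewer cells of a type cannot be told apart from less RNA per cell.

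Hao1 was nearly gone with D3 at 10 nM. The 4 libraries held 6, 2, 3 and 5 counts of Hao1, or 1.09, 0.435, 0.591 and 1.11 CPM, whereas the mock libraries ranged from 27.7 to 38.7 CPM with a median of 33.8 CPM. All treated libraries lay far below all mock libraries. The log2 fold change was −5.32 (SE 0.208, adjusted p = 4.49e-20, edgeR), and the summed counts left 2.42% of the mock level, with a 95% interval from 1.38% to 3.95% (exact, counting error only). The level fell from 6.82 CPM ± 2.24 at 0.1 nM and 2.02 CPM ± 0.217 at 1 nM to 0.806 CPM ± 0.344 at 10 nM, and stood at 0.797 CPM ± 0.382 at 50 nM (SD, n = 4 each). The libraries at 10 and 50 nM overlapped, and those at 0.1 and 1 nM lay above them all.

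**Figure D1:**
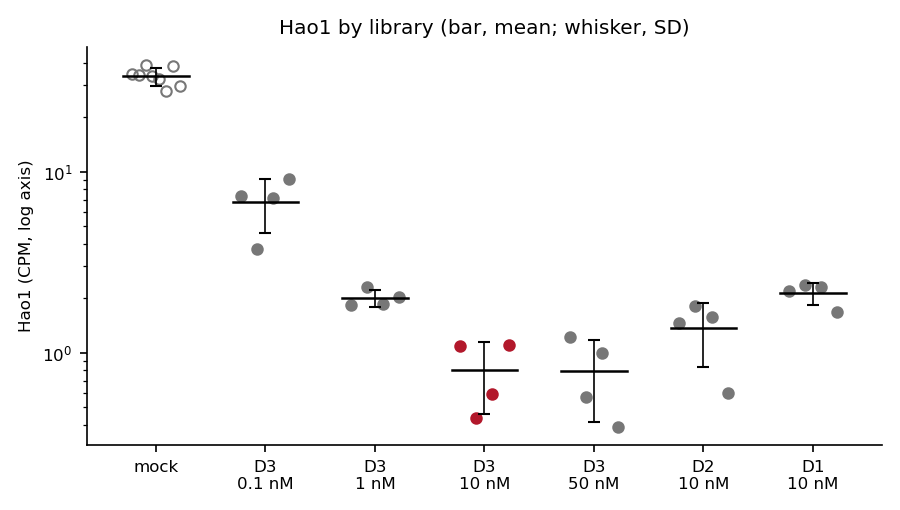
Hao1 in CPM on a logarithmic axis for each library of mock (open circles), D3 at 4 doses, and D2 and D1 at 10 nM. Bars are means and whiskers are SDs. The 4 libraries with D3 at 10 nM (red) lie between 0.435 and 1.11 CPM, below all libraries with D1 at the same dose.

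At the matched dose of 10 nM, Hao1 was at 1.37 CPM ± 0.530 with D2 and at 2.14 CPM ± 0.307 with D1 (SD, n = 4 each). The libraries of D3 and D1 did not overlap, and the ratio of D3 to D1 was 0.381, with a counting interval from 0.201 to 0.689. The exact permutation test gave p = 0.0286, the smallest that 4 against 4 libraries allow, and p = 0.0571 after Benjamini-Hochberg adjustment over the 2 pairs compared. The ratio of D3 to D2 was 0.596, with an interval from 0.300 to 1.15, and their libraries overlapped (exact permutation test, adjusted p = 0.143). Ttr, the target of the other siRNA family of the series and the carrier of thyroxine and retinol, was at 997, 937, 440 and 986 CPM with D3 and at 538 to 719 CPM in mock, with a median of 675 CPM. Replicate 3 alone lay below the mock range and the other 3 libraries above it, and Ttr did not pass the test (log2 fold change 0.35, adjusted p = 0.246, edgeR). Without that library its log2 fold change was 0.57 (adjusted p = 2.33e-08). F12, coagulation factor XII, and Gapdh did not pass either, with log2 fold changes of 0.17 and −0.12, although both were called without mock replicate 2 (0.20 and −0.13).

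Across the transcriptome, 1967 of 11275 genes tested differed between D3 at 10 nM and mock (17.4%), of which 1004 were lower (8.9%) and 963 higher (8.54%). An unadjusted p under 0.05 was reached by 3351 genes. Most changes were small: 90% of the log2 fold changes lay between −0.44 and 0.45, and 37 genes rose by more than 1 on the log2 scale and 53 fell by more than 1. All 4 treated libraries lay below all 8 mock libraries for 559 genes (4.96%) and above them for 482 (4.27%). With the genes divided into 4 groups of equal size by mean level, 458 were lower and 316 higher in the group above 81.3 CPM, and 85 were lower and 169 higher in that up to 10.7 CPM.

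**Figure D2:**
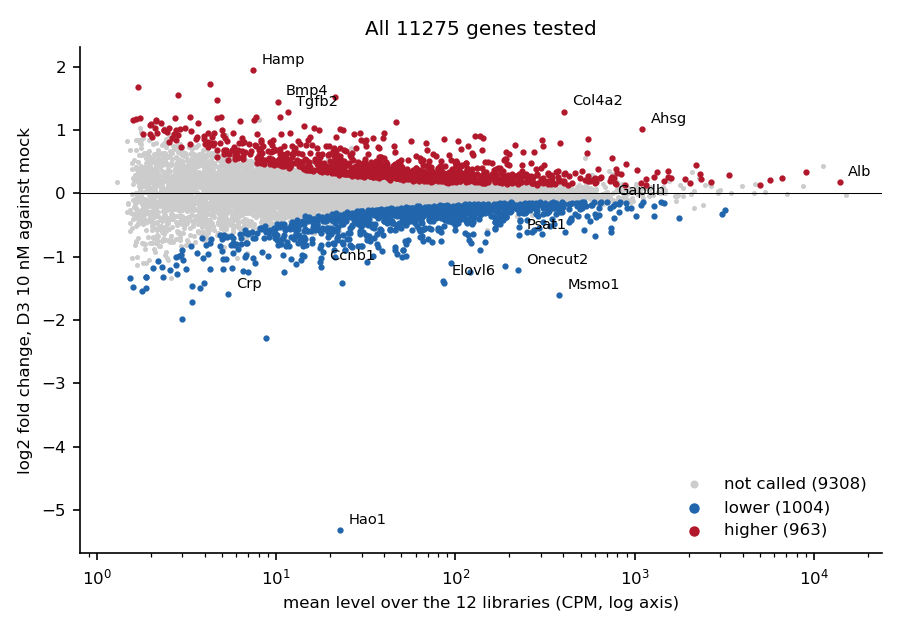
Log2 fold change of D3 at 10 nM against mock for the 11275 genes tested, against the mean level over the 12 libraries in CPM on a logarithmic axis. The 1004 genes called lower are blue, the 963 called higher are red, and Hao1 at −5.32 stands apart from the rest.

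After Hao1, the largest decreases among genes with a mean of at least 5 CPM were those of the pseudogene Gm8995 and of Msmo1, the sterol C4-methyl oxidase of cholesterol synthesis. Msmo1 was at 143, 168, 187 and 140 CPM with D3 and at 420 to 521 CPM in mock, with a median of 504 CPM. The groups were widely separated, with a log2 fold change of −1.61 (SE 0.0744, adjusted p = 1.2e-13, edgeR). Elovl6, the elongase that makes C18 fatty acids from C16, was at 40.9, 37.7, 47.9 and 37.0 CPM against 103 to 118 CPM in mock, with a median of 105 CPM. Here too every treated library lay below every mock library (log2 fold change −1.38, SE 0.0735, adjusted p = 3.54e-16, edgeR).

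Onecut2, a transcription factor of hepatic and biliary development, was at 121, 110, 104 and 140 CPM with D3 and at 218 to 314 CPM in mock, with a median of 287 CPM. Its decrease of 1.21 on the log2 scale again separated the groups (SE 0.121, adjusted p = 2.23e-05, edgeR). Crp, the pentraxin of the acute phase response, was low throughout, at 3.64, 1.09, 2.56 and 1.55 CPM with D3 and 4.23 to 8.75 CPM in mock, and its log2 fold change was −1.59 (SE 0.267, adjusted p = 4.66e-05, edgeR). Fgfbp1, a secreted carrier of fibroblast growth factors, and Tff1, a secreted trefoil peptide, had log2 fold changes of −1.24 and −1.41. Ripk3, the kinase of necroptosis, and Troap, a spindle-associated protein, had −1.24 and −1.17. Trdc, the constant region of the T cell receptor delta chain, was at 109 CPM ± 15.5 in mock and 40.7 CPM ± 4.68 with D3 (log2 fold change −1.42). Of the lymphocyte markers, Cd3e, the most abundant, was at 2.17 CPM ± 1.317 in mock and 1.87 CPM ± 1.21 with D3 and did not pass the test, and Cd3d, Cd3g and Ptprc had no count in any of the 12 libraries. The pseudogenes Gm8995 and Gm7893, at −2.28 and −1.22, may share reads with their parent genes, and their values are uncertain for that reason.

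Among the increases of genes with a mean of at least 5 CPM and no overlap of the groups, Hamp came first. It encodes hepcidin, the liver hormone that limits iron export, and was at 19.7, 10.5, 10.8 and 18.2 CPM with D3 and at 1.16 to 7.95 CPM in mock, with a median of 3.35 CPM. The groups did not overlap, but the spread within them was wide (log2 fold change 1.95, SE 0.370, adjusted p = 0.00293, edgeR). Chains of type IV collagen, the network-forming collagen of basement membranes, were also among these increases, with far tighter values. Col4a2 was at 656, 723, 663 and 608 CPM against 235 to 285 CPM in mock, with a median of 273 CPM (log2 fold change 1.29, SE 0.0513, adjusted p = 4.49e-20, edgeR). Col4a5 rose by 1.52 (SE 0.124).

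Growth factors of the TGF-β superfamily were also among the largest increases. Bmp4 was at 17.7, 23.1, 14.4 and 15.9 CPM with D3 and 3.79 to 9.03 CPM in mock, a log2 fold change of 1.45 (SE 0.175, adjusted p = 2.4e-07, edgeR), and Tgfb2 had 1.28 (SE 0.153). For both genes the groups were apart. Ahsg, the plasma glycoprotein fetuin-A, was abundant and its values were close together, at 1622, 1703, 1737 and 1584 CPM against 680 to 999 CPM in mock (log2 fold change 1.01, SE 0.0921, adjusted p = 6.45e-06, edgeR). The other increases by this rule were Pmp22, a tetraspan membrane protein (1.21), St14, the serine protease matriptase (1.17), Efemp1, an extracellular matrix protein of the fibulin family (1.14), Rnf167, a ubiquitin ligase of endosomes (1.06), Socs2, the feedback inhibitor of growth hormone signalling (1.03), and Parm1, a membrane mucin (1.02). Hamp, Rnf167 and, among the decreases, Elovl6 overlap annotated genes of the opposite strand.

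**Figure D3:**
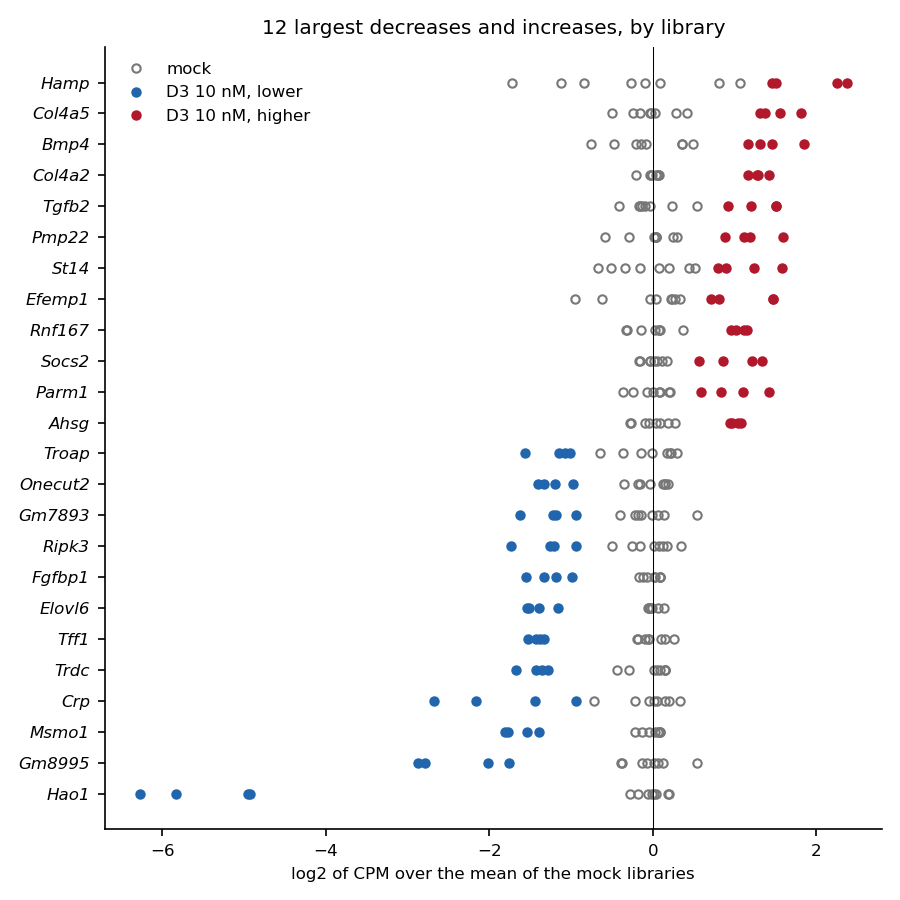
The 12 largest decreases and 12 largest increases with D3 at 10 nM, one row per gene, as log2 of each library's CPM over the mean of the mock libraries. Open circles are the 8 mock libraries and filled circles the 4 treated libraries, which lie outside the mock range in every row because the genes were chosen by that rule.

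The lists described below were chosen with earlier results of these data known, so their shares are descriptions and no test. The cell cycle and DNA replication list held the largest share of lower genes among the lists examined. Of its 37 tested members, 27 were lower (73%) and 4 higher (10.8%), beside 8.9% and 8.54% of all genes tested, and the median log2 fold change was −0.45. The decreases ran from regulators of mitosis to the replication machinery. Ccnb1, cyclin B1, was at 9.46, 8.71, 8.67 and 12.2 CPM with D3 against 17.5 to 30.3 CPM in mock, with a median of 20.3 CPM (log2 fold change −1.15, SE 0.155, adjusted p = 1.64e-06, edgeR). The treated libraries all lay below the mock range. Foxm1, the transcription factor of the G2/M programme, fell by 0.91, the chromosomal passenger Birc5 by 0.83, and the proliferation marker Mki67 from 171 CPM ± 20.7 to 99.4 CPM ± 21.4 (log2 fold change −0.77). Of the replication helicase, Mcm4 and Mcm5 fell by 0.55 and 0.43. The 4 members that rose were the D-type cyclins Ccnd1 and Ccnd2, the transcription factor Myc and E2f2. Ccnd1, which carries growth signals into G1 and is the most abundant member per length of transcript, was at 721, 726, 727 and 663 CPM against 396 to 552 CPM in mock, and its log2 fold change was 0.65 (SE 0.0572, adjusted p = 7.51e-10, edgeR).

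Genes of the integrated stress response, the programme that ATF4 drives when amino acids are short or the endoplasmic reticulum is stressed, were lower as well. Of 30 tested, 18 were lower (60%) and 1 higher (3.33%), beside 8.9% and 8.54% of all genes tested, with a median log2 fold change of −0.24. Psat1, of serine synthesis, was at 160, 159, 175 and 156 CPM with D3 and at 236 to 288 CPM in mock, with a median of 255 CPM. It fell by 0.66 with no overlap (SE 0.0579, adjusted p = 1.99e-10, edgeR). Phgdh, the first enzyme of that pathway, also fell by 0.66, and the mitochondrial folate enzyme Mthfd2 by 0.56. The tRNA synthetases Nars, Sars and Gars fell by 0.33, 0.31 and 0.22, the cystine transporter Slc7a11 by 0.54, and Atf5, the most abundant of the list per length, by 0.43. Atf4 itself had −0.17, which was not called without D3 replicate 1, 2 or 4 (−0.16, −0.15 and −0.16). The member that rose was Slc3a2, the heavy chain of amino acid transporters, at 0.24.

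In fatty acid and cholesterol synthesis more genes were lower than higher, and apart from Elovl6 and Msmo1 the decreases named were small. Of 27 fatty acid synthesis and storage genes, 9 were lower (33.3%, beside 8.9% of all genes tested) and 1 higher, with a median of −0.07. Beside Elovl6 these included Lpin1 and Lpin2, phosphatidate phosphatases of triglyceride synthesis, which fell by 0.42 and 0.33, and Fads1, the delta-5 desaturase, which fell by 0.36. The increase was that of Srebf1, the transcription factor of fatty acid synthesis, at 0.24, which was not called without D3 replicate 2 (0.22). Of 25 cholesterol synthesis genes, 5 were lower (20%) and 2 higher, with a median of −0.09. Msmo1 was the extreme. The other decreases were in Pmvk (−0.36), Lss (−0.35), Fdps (−0.34, not called without D3 replicate 1) and Stard4 (−0.17), and the increases included that of Srebf2 (0.20), the transcription factor of cholesterol synthesis. The calls of Stard4 and Srebf2 were lost when single libraries were left out. In the list of fatty acid oxidation and ketogenesis, by contrast, 2 of 30 genes were lower and 3 higher, with a median of 0.047.

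In the lists of secreted hepatocyte products more genes were higher than lower, relative to the typical gene. Of 28 plasma protein and apolipoprotein genes, 17 were higher (60.7%, beside 8.54% of all genes tested), none was lower and 11 were not called, with a median log2 fold change of 0.22. On the spike-in scale 1 was higher and 3 were lower, with a median of −0.32. Apart from Ahsg the increases were small: Alb rose by 0.18, the apolipoproteins Apoa1 and Apoa2 by 0.31 and 0.33, and vitronectin, Vtn, by 0.28. Of 18 acute phase genes, 8 were higher (44.4%) and 1, Crp, lower, with a median of 0.23 that was −0.30 on the spike-in scale, where 1 was higher and 1 lower. The fibrinogen chain Fgg rose by 0.45, Saa2 by 0.36 and Itih4 by 0.24, and Hpx, the haem scavenger and most abundant of the list per length, did not pass the test (0.10, adjusted p = 0.416, edgeR). Reads of Saa2 may be split with its near-identical neighbour Saa1. Of 18 complement genes, 13 were not called and 4 were higher (22.2%; none on the spike-in scale, with 3 lower), namely the lectin pathway protease Masp1 at 0.66, C3 at 0.34, C1ra at 0.28 and Cfi at 0.21, and 1 was lower, C8a at −0.58. C3 was not called without D3 replicate 1, 3 or 4 (0.31, 0.34 and 0.34), and the calls of C1ra and Cfi were also lost when single libraries were left out.

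Targets of YAP and TGF-β are genes that respond to cell tension, matrix and growth factors. Of 24 tested, 14 were higher (58.3%) and 1 lower (4.17%), beside 8.54% and 8.9% of all genes tested. The median of 0.36 was −0.20 on the spike-in scale, where 1 was higher and 8 were lower. Beside Tgfb2 the increases included the feedback inhibitors Smad7 and Amotl2, at 0.84 and 0.50. The matricellular proteins Ccn1 and Thbs1 rose by 0.79 and 0.84, and Sox9 by 0.71. Tgfb1 was the member that fell, by 0.46. Of 25 actin cytoskeleton and SRF target genes, 13 were higher (52%) and 3 lower (12%), beside 8.54% and 8.9% of all genes tested. The median of 0.15 was −0.38 on the spike-in scale, where none was higher and 12 were lower. Cnn2, calponin 2, rose by 0.67, the immediate early gene Egr1 by 0.45 and the cross-linker Actn1 by 0.33. The decreases were in the tubulins Tubb6 (−0.61) and Tubb2a (−0.22) and in Actg1 (−0.35), while Actb, the most abundant per length, had a log2 fold change of 0.01 and did not pass the test.

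Since Col4a2, Col4a5, Bmp4 and Hamp stood among the largest increases, 2 further lists were drawn up after these values had been seen. Col4a2 and Col4a5 are counted in the first list, and Bmp4 and Hamp in the second. The shares of both lists therefore describe genes chosen for the pattern and are no test of it. Of 13 tested basement membrane genes, 7 were higher (53.8%, beside 8.54% of all genes tested) and none lower, with a median of 0.35. On the spike-in scale 2 were higher and 3 lower, with a median of −0.20. They were Col4a1 (0.87), Col4a2, Col4a5, the proteoglycans Hspg2 (0.60) and Agrn (0.39), Lamb3 (0.51) and Col18a1 (0.31). The laminin chains Lamb2, Lamc1 and Lama5 and the nidogens Nid1 and Nid2, which link laminin to collagen, did not pass the test, although Lama5 was called without D3 replicate 3 (0.46) and Lamc1, as lower, without mock replicate 4 (−0.19). Col4a1 and Col4a2 are read from opposite strands at a shared start. Of 20 tested genes of BMP signalling, 9 were higher (45%) and none lower, with a median of 0.25, and on the spike-in scale 2 were higher and 6 lower, with a median of −0.30. Id3, a direct BMP target, was at 32.6, 31.8, 31.5 and 29.2 CPM with D3 and at 11.2 to 21.5 CPM in mock, with a median of 16.7 CPM. The groups were apart, with a log2 fold change of 0.90 (SE 0.115, adjusted p = 4.87e-07, edgeR). Id2 and Id1 rose by 0.44 and 0.33, the latter not called without D3 replicate 1 (0.26). The receptors Bmpr1a, Bmpr2 and Acvr1 did not pass the test, and neither did the ligands Bmp2 and Bmp6.

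In the list that holds the target enzyme 3 genes were called, Hao1 itself included. Of 13 tested genes of glyoxylate metabolism and peroxisomal oxidation, 2 were lower (15.4%), Hao1 among them, and 1 was higher (7.69%). Of all genes tested, 8.9% were lower and 8.54% higher. The increase was that of Hoga1, which releases glyoxylate from hydroxyproline breakdown (0.36, adjusted p = 0.0378, edgeR). The other 10 did not pass the test. They were Agxt, which transaminates glyoxylate (0.45, adjusted p = 0.121), Grhpr, which reduces it (0.01), Ldha (−0.11), Agxt2, Aldh4a1, Cat, Ddo, Gcsh, Gldc and Pipox (edgeR). Agxt was low, at 5.31 CPM ± 1.324 in mock, and was called without mock replicate 8 (0.56), as was Cat, as lower, without mock replicate 2 (−0.19). Hoga1 was called neither without D3 replicate 1, 2 or 4 nor without mock replicate 1, 5, 6, 7 or 8, with the smallest value, 0.26, without D3 replicate 4.

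The remaining metabolic lists were mixed. Of 28 cytochrome P450 and related genes, 7 were higher (25%) and 3 lower (10.7%), beside 8.54% and 8.9% of all genes tested, among them Cyp2d22 (0.71), Cyp2d10 (0.48), Cyp2c70 (0.38) and the electron donor Por (0.34) on one side, and Cyp2j5 (−0.95), Cyp2a5 (−0.84, between −0.81 and −0.76 and not called without D3 replicate 2, 3 or 4) and Cyp3a13 (−0.29), the most abundant of the list per length, on the other. The canalicular transporter Abcc2 fell by 0.36 and the sinusoidal uptake transporter Slco1a1 had −1.005, in a list of bile acid genes in which 2 of 14 were lower (14.3%) and none higher. Of 17 gluconeogenesis and glycogen genes, 5 were lower (29.4%), Tat (−0.78), Igfbp1 (−0.67), Pck2 (−0.38), Pygl and Gbe1 (−0.32 each), and 1 was higher, Fbp1 (0.51). Tat, tyrosine aminotransferase, and Igfbp1, which insulin represses, were not called without D3 replicate 2 or 3 (−0.68 and −0.57 for Tat, −0.58 and −0.61 for Igfbp1), nor Fbp1 without D3 replicate 4 (0.41). Igfbp3, the main carrier of IGF1, was at 299.5, 286, 337 and 333 CPM with D3 and 178 to 222 CPM in mock (log2 fold change 0.65, SE 0.0618, adjusted p = 2.87e-09, edgeR).

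The lists of housekeeping machinery differed in how many members were called. Of 79 cytosolic ribosomal protein genes, 4 were lower and none higher, and among these Rpl5, which also binds the p53 regulator Mdm2, stood out at 221 CPM ± 13.2 against 345 CPM ± 20.6 in mock (log2 fold change −0.64, SE 0.0541). The others were Rpl12, Rpl28 and Rps4x, at −0.20, −0.17 and −0.15. Of 76 nuclear genes of the respiratory chain, 1 was lower, Ndufv1 (−0.22), and 1 higher, Ndufv2 (0.23), and of 9 mitochondrially encoded genes, mt-Nd1, mt-Nd4 and mt-Cytb were higher (0.14, 0.18 and 0.21), or 33.3% beside 8.54% of all genes tested. The calls of Rpl28, Rps4x, Ndufv1, Ndufv2 and mt-Nd1 were lost when single libraries were left out. Of 30 splicing factor genes, 6 were lower (20%, beside 8.9% of all genes tested) and none higher, the largest decrease being that of Luc7l3 at −0.43. In endocytosis and vesicle traffic, 9 of 29 were lower (31.0%) and 3 higher. The retromer subunit Vps35 fell by 0.42 and the early endosome tether Eea1 by 0.49, while the caveolar protein Cav1 rose by 0.94, the scaffold Flot1 by 0.33 and Asgr1, a subunit of the asialoglycoprotein receptor that takes up GalNAc ligands, by 0.80. The calls of Flot1 and Asgr1 were lost when single libraries were left out. Of 22 NRF2 targets, 7 were lower (31.8%) and 2 higher, with Gclc, of glutathione synthesis, at −0.54 and Gsta1 at −0.59, and the increases were in Ftl1 (0.26) and Osgin1 (0.27).

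No induction of interferon genes was called with D3 at 10 nM against mock. Of 28 type I interferon response genes, 2 were lower (7.14%, beside 8.9% of all genes tested) and none higher. These were the double-stranded RNA sensors Oas1a, at 14.6, 17.9, 21.3 and 15.3 CPM with D3 against 21.9 to 38.5 CPM in mock (log2 fold change −0.72, adjusted p = 0.00131, edgeR), and Eif2ak2, the kinase PKR, at −0.26. Bst2, the most abundant of the list per length, had −0.04. Between 10 and 0.1 nM of D3, 2 of 28 interferon genes were higher at 10 nM and none lower, with a median of 0.29. Of all genes tested there, 3.08% were higher and 5.46% lower. With D3 at 50 nM against mock, 2 genes of this list were higher and 2 lower. Of 17 nucleic acid sensors, 3 were lower (17.6%), Oas1a, Eif2ak2 and Tbk1, and 1 was higher (edgeR). Tbk1 (−0.22) lost its call without any one of D3 replicates 1 to 3 or mock replicates 1, 2, 6 and 7, with −0.15 without D3 replicate 3. Of 15 NF-κB and cytokine genes, 5 were higher (33.3%) and 1 lower (6.67%), beside 8.54% and 8.9% of all genes tested. On the spike-in scale none of this list was higher and 4 were lower, with a median of −0.43. Cxcl10, the chemokine, was at 3.46, 6.53, 13.995 and 6.20 CPM with D3 and 1.46 to 6.34 CPM in mock, with overlapping groups (log2 fold change 1.195, adjusted p = 0.0372, edgeR). That call was lost without any one of 9 of the 12 libraries, and without D3 replicate 3 the value was 0.70. Vcam1, Nfkbia, Tnfaip3 and Lcn2 rose by 0.41, 0.40, 0.32 and 0.31, and Icam1 fell by 0.31, of which only Nfkbia and Lcn2 kept their call with each of the 12 libraries left out in turn.

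**Figure D4:**
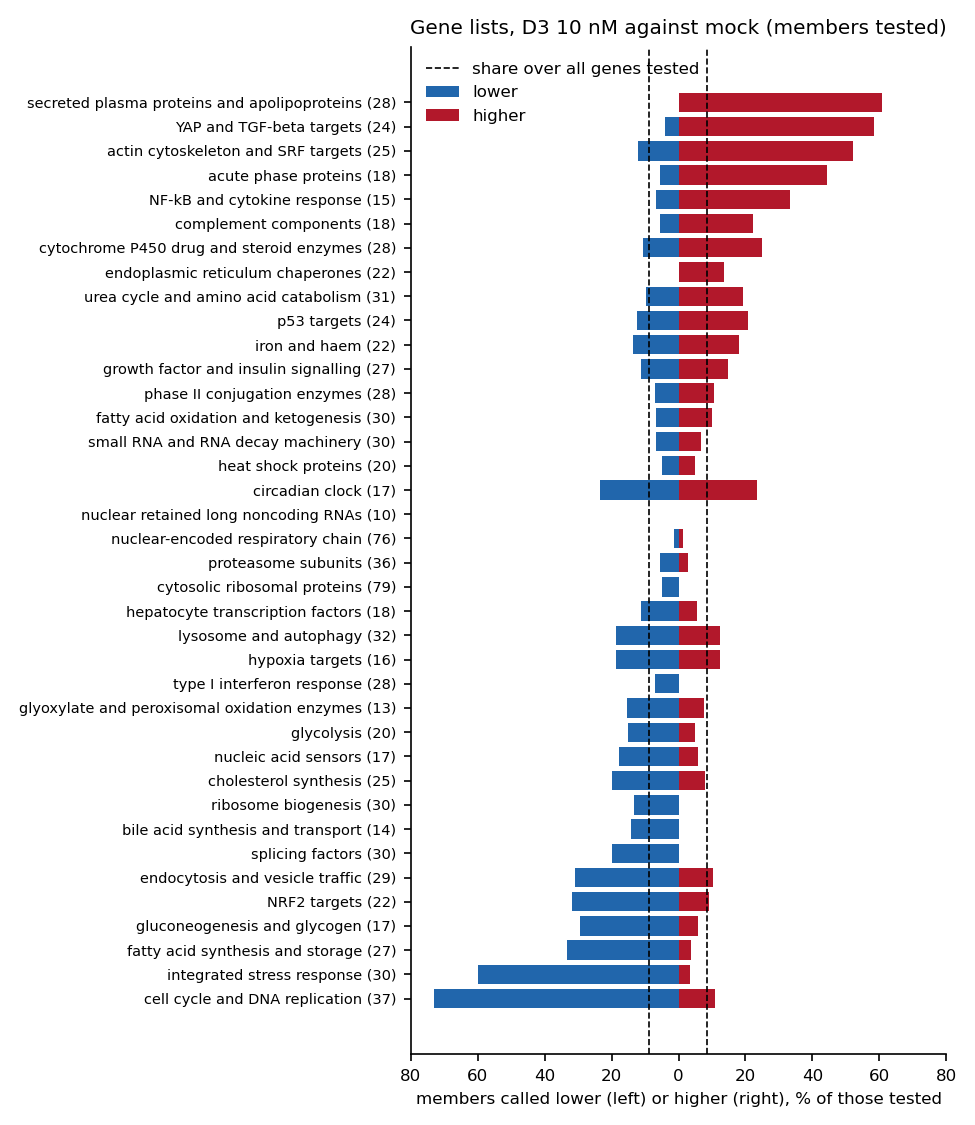
Share of tested members called lower (blue, to the left) and higher (red, to the right) with D3 at 10 nM against mock, for 38 lists with at least 10 tested members, whose number stands in parentheses. The plotted lists were chosen with earlier results of these data known. The 2 lists drawn up after the present values had been seen, basement membrane and BMP signalling, are not plotted. Dashed lines mark the shares over all genes tested, 8.9% and 8.54%. The cell cycle and integrated stress response lists reach farthest to the left and the plasma protein and YAP and TGF-β lists farthest to the right.

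At 10 nM, 450 of 11115 genes (4.05%) differed between D3 and D2, which share a backbone at position 5 and differ in its base. D3 was lower for 265 (2.38%) and higher for 185 (1.66%). The largest decreases relative to D2, at a mean of at least 5 CPM, were those of Gm8995 (−2.02), 1110002J07Rik, a long noncoding RNA (−1.37), Fgfbp1 (−1.26), Cdh17, a cadherin of the gut and liver (−1.16), and Elovl6 (−1.11). Elovl6 was between 37.0 and 47.9 CPM with D3 and between 84.8 and 92.3 CPM with D2, and Cdh17 between 80.8 and 116 CPM with D3 and between 216 and 256 CPM with D2. Neither pair of groups overlapped. Msmo1 was 0.80 lower than with D2 (SE 0.0729, adjusted p = 5.85e-07, edgeR). Higher with D3 were Hamp (1.36), Adgrg1, an adhesion receptor (1.12), Vcan, the proteoglycan versican (1.11), Lrrc8c, a subunit of volume-regulated anion channels (1.10), and Cgref1 (1.02), which overlaps the antisense gene Khk.

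Gene groups differed between D3 and D2 unevenly. Of 30 integrated stress response genes, 9 were lower with D3 and none higher, with a median of −0.19. Of all genes tested, 2.38% were lower than with D2 and 1.66% higher. Psat1 was 0.61 lower (SE 0.0602) and Mthfd2 0.52 lower. Of 25 tested fatty acid synthesis genes, 5 were lower, Elovl6, Lpin1 (−0.49), Lpin2 (−0.37), Fads1 (−0.33) and Scd2 (−0.26). Of 27 growth factor and insulin signalling genes, 5 were higher, Socs2 by 0.77, Igfbp3 by 0.61, Igf1 by 0.33, Ghr by 0.28 and Met by 0.27. Of 37 cell cycle genes, 1, Cdk6, was lower (−0.27) and 1, Ccnd1, was higher (0.50), although the median of the list, −0.20, was as low as that of the stress response list. For Ccnb1 the difference from D2 was −0.63, with a 95% interval from −0.99 to −0.26, and missed the threshold after adjustment (adjusted p = 0.0529, edgeR). Of 28 plasma protein genes 1, Ahsg, was higher, by 0.28. Against mock, D2 itself had 123 genes lower (1.09%) and 132 higher (1.17%) of 11297 tested (2.26% in all). The number of genes that differed between D3 and D2 fell from 450 to 252, 262 and 264 without D2 replicate 1, 3 or 4 and to 298 without D3 replicate 2.

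Against the parent D1 at 10 nM, 1257 of 11116 genes (11.3%) differed, and D3 was lower for 594 (5.34%) and higher for 663 (5.96%). Higher with D3 were Hamp (2.04), Casc4, a Golgi membrane protein (1.98), Vcan (1.83), Clstn1, calsyntenin 1 (1.78), and Actg1, cytoplasmic gamma actin (1.57). The levels of Casc4 and Actg1 with D3 were 13.9 CPM ± 1.38 and 153 CPM ± 10.8, in mock 13.8 CPM ± 1.69 and 194 CPM ± 11.7, and with D1 3.50 CPM ± 0.835 and 51.3 CPM ± 5.01. Lower with D3 than with D1 were Gm8995 (−1.76), Aadac, arylacetamide deacetylase (−1.54), Msmo1 (−1.47), Vil1, the microvillar protein villin (−1.45), and Il18rap, a cytokine receptor chain (−1.29). Msmo1 was between 140 and 187 CPM with D3 and between 404 and 467 CPM with D1, with no overlap.

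The cell cycle list differed in the opposite sense from its comparison with mock: 14 of 37 were higher with D3 than with D1 and 1, Ccnd3, was lower (−0.28). Of all genes tested, 5.96% were higher with D3 than with D1 and 5.34% lower. Ccnb2 differed by 1.44, Plk1 by 1.05 and Mki67 by 0.70. Cdh17 also was higher than with D1, by 1.46 (SE 0.112), and lower than with D2. Integrated stress response genes were lower with D3 than with D1 in 12 of 30, with none higher. Mthfd2 differed by −0.52, and for Phgdh the difference was 0.01, with a 95% interval from −0.14 to 0.17. Of 29 endocytosis genes, 10 were lower and none higher, with Asgr1 and Asgr2 at −0.69 and −0.65, and of 26 growth factor genes, 8 were higher and none lower. The comparisons of D3 and D1 with mock share the mock libraries. With D1, the cell cycle list had 29 lower and none higher, and the integrated stress response list 4 lower and 2 higher, beside 10.6% and 8.43% of 11323 genes tested. D1 against mock also had 15 plasma protein genes, 9 acute phase genes and 8 complement genes higher, with none lower. Of the basement membrane list, 7 were higher with D1 than in mock and 1 lower. Increases in these lists were thus not particular to D3.

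The number of genes called against mock was larger at each higher dose of D3. D3 at 0.1 nM had 1 gene called lower against mock of 11293 tested (0.00886%), Hao1 (log2 fold change −2.29), with 800 genes at an unadjusted p under 0.05 (edgeR). At 1 nM there were 24 genes lower (0.212%) and 22 higher (0.195%) of 11304, among them Msmo1 (−0.50), Elovl6 (−0.28) and Col4a2 (0.42). At 50 nM there were 1677 lower (14.8%) and 1532 higher (13.5%) of 11331, with Msmo1 at −2.02, Elovl6 at −1.65, Col4a2 at 1.45 and Hamp at 2.31. These comparisons share the mock libraries. Directly between 10 and 0.1 nM of D3, which uses no mock library, 948 of 11102 genes (8.54%) differed, 606 of them lower at 10 nM (5.46%) and 342 higher (3.08%). Of 30 integrated stress response genes 14 were lower and none higher, of 37 cell cycle genes 17 were lower and 3 higher, and of 25 fatty acid synthesis genes 10 were lower and none higher. Of 24 YAP and TGF-β targets 8 were higher and 1 lower, of 25 actin cytoskeleton genes 8 were higher and 3 lower, and of 25 cholesterol synthesis genes 6 were lower and none higher. Of 28 plasma protein genes 2 were higher and 1 lower, and of 18 complement genes 1 was higher and 1 lower. Hao1 was 3.04 lower on the log2 scale at 10 nM (SE 0.388).

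Seed matches were searched in the longest annotated 3′-UTR of 20896 genes, on the transcript strand. A mer8 match is the bases facing guide positions 2 to 8 (ATCGACA) followed by an A, a mer7m8 match lacks that A, and a mer7A1 match has the bases facing positions 2 to 7 and the A. A gene was placed by its strongest match, and 0.397% of these 3′-UTRs hold a mer8 match and 2.41% any of the 3 types. With D3 at 10 nM, 41 genes with a mer8 match were tested, of which 6 were lower and 6 higher, with a median log2 fold change of −0.02. Over all 303 genes with any match, 8.91% were lower and 10.2% higher, close to the 9.19% and 8.95% of all 10679 tested genes with a 3′-UTR. For D1 against mock the mer8 set had 15 lower and 2 higher (36.6% and 4.88%), beside 11% and 8.86% of all genes with a 3′-UTR. Directly, D3 was higher than D1 for 12 of 41 mer8 genes and lower for 1, and higher than D2 for 2 and lower for 2. Of all genes with a 3′-UTR, 6.22% were higher and 5.55% lower than with D1, and 1.75% higher and 2.44% lower than with D2.

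The 6 mer8 genes that were lower with D3 were Elovl6 (−1.38), whose site is printed above, Tubb6 (−0.61), Rnf115, a ubiquitin ligase (−0.58), Cog2, a subunit of a Golgi tethering complex (−0.37), Tubb5 (−0.36) and Pdxdc1 (−0.21). The 6 that were higher were Apoa1 (0.31), Mat1a, which makes S-adenosylmethionine in liver (0.36), the kinase Sik1 (0.36), Wfs1, a protein of the endoplasmic reticulum (0.41), Thsd4 (1.11) and Chst15, a sulfotransferase (1.69). The matches of Tubb5, Tubb6, Apoa1 and Wfs1 lie in coding sequence of another annotated transcript. For Rnf115 and Cog2, the difference between D3 and D1 was 0.95 (SE 0.101) and 0.74 (SE 0.144), with the lower level with D1, at 38.8 CPM ± 5.05 and 14.1 CPM ± 1.72. Cog2 was not called against mock without D3 replicate 3 or 4 (−0.28 and −0.36), nor Thsd4 without D3 replicate 1 or 4 (0.89 and 0.98). Elovl6 differed in the other direction, 0.43 lower with D3 than with D1.

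Because position 5 carries the modified base, the same search was made with each of the other 3 bases facing it, whose letters are given with each set. These sets overlap one another and the seed set, and their 3′-UTRs are longer than those of all genes tested, with medians from 3082 to 3157 bases against 1918 bases. With A facing position 5 (ATCAACA), a match held by 17.1% of all 3′-UTRs searched, 1916 genes were tested, of which 13.0% were lower and 7.15% higher. For C facing it (ATCCACA), 8.81% of 2328 genes were lower and 9.28% higher. For U facing it (ATCTACA), 9.52% of 2354 were lower and 7.73% higher. Among mer8 matches with A facing position 5, 44 of 287 were lower and 19 higher, or 15.3% and 6.62%. In the direct comparison with D2, 3.95% of genes with a match of any form with A facing position 5 were lower with D3 and 1.37% higher, beside 2.44% and 1.75% of all genes with a 3′-UTR. Against D2, the guide seed set had 4.68% of 299 genes lower and 2.68% higher, and the mer8 matches with C facing position 5 had 4.76% lower and 0.635% higher, beside 5.32% and 0.709% for mer8 matches with A. In the comparison with D1, 8.64% of genes with A facing position 5 were lower and 5.48% higher, beside 5.55% and 6.22%. Matches to the seed of the passenger strand (TCACATT) were held by 2685 tested genes, of which 9.98% were lower and 8.83% higher. A match is a description of the sequence, and whether any of these sites was bound was not tested.

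**Figure D5:**
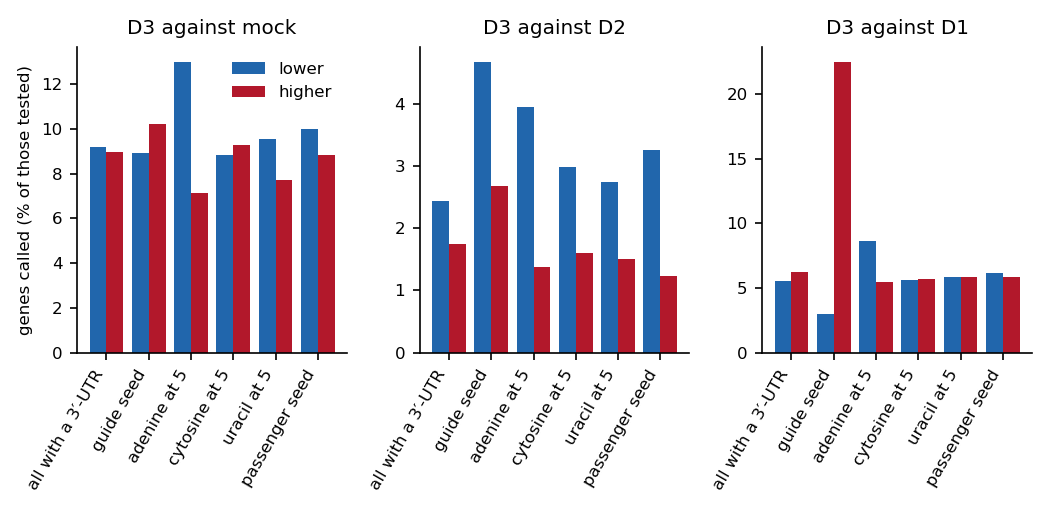
Share of tested genes called lower (blue) and higher (red) with D3 at 10 nM against mock, D2 and D1, for all genes with a 3′-UTR and for genes with a match of any of the 3 types to the guide seed, to the guide seed with another base facing position 5, and to the passenger seed. The vertical axes differ between panels. The set with adenine facing position 5 has 13.0% lower against mock, and the guide seed set has 22.5% higher against D1.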

How the data were processed

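Counts per gene were deposited by the authors without normalization, as 2 sequencing runs per library. Libraries had been made with a stranded total RNA kit, reads filtered with fastq-mcf, aligned to GRCm39 with STAR and uniquely aligned reads counted with featureCounts 2.0.2 (versions per the submitters' processing notes). Whether counting used strand is not given in the sources used here, so overlapping antisense genes cannot be told apart. The runs were summed (chi-square per degree of freedom 1.00 to 1.05, against 1.69 to 8.50 between replicates). Of 55416 genes, 52340 have a symbol. The 92 spike-ins were left out. Deposited tables of the authors' DESeq2 1.32.0 results supplied symbols only. Seed matches used a GENCODE annotation of the same build.

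Tests were edgeR 4.0.16 in R 4.3.3 (TMM, filterByExpr, glmQLFit with robust set to TRUE, glmQLFTest), on the groups compared only, with Benjamini-Hochberg adjustment over all genes tested and a threshold of 0.05. SE is the log2 fold change over the root of F, and a 95% interval is 1.96 SE either way. The test was tested on simulated counts. Single values used exact permutation over libraries. Named genes were Hao1, Ttr, F12 and Gapdh, the 12 largest decreases and increases (mean of at least 5 CPM, groups apart), up to 4 members with the smallest p and the most abundant of each of 40 lists, all glyoxylate genes, called mer8 genes and the 5 largest differences each way from D2 and D1. Further list members were named after their values were seen. Members and lists were chosen with earlier results of these data known. Alternatives were DESeq2 1.42.0, RLE and spike-in scaling, other filters, single runs, all groups in one fit, a replicate block and leaving out libraries. Some genes that the naming rule or the lists cover are not reported here. Intervals on counts cover counting error only.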

Additional observations from a re-analysis of the deposited data

Results flagged for a closer look

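Of 112 tests for a sample far from the others of its group, 6 gave one, and chance gives about 1 in 20. With D3 at 10 nM, Ttr was at 440.2 CPM in replicate 3, against 937 CPM in the next lowest library, and Cgref1 was at 20.7 CPM in replicate 2, against 18.01 CPM in the next highest. In mock, Col4a2 was at 235 CPM in replicate 4, against 264 CPM in the next lowest library, and Tubb6 was at 335 CPM in replicate 8, against 293 CPM in the next highest. Replicate 1 of D3 had 11276 genes with at least 10 counts, against 11033 in the next highest, and in replicate 2 the 10 most abundant genes took 10.4% of counts, against 9.13% in the next highest. What set these libraries apart was not tested.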

How the results depend on the processing

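Against mock, the count of 1967 genes stayed within 1.5 times under DESeq2, RLE scaling, either run alone, other filters, all groups in one fit and a replicate block, and ranged from 1476 without D3 replicate 2 to 1976 without mock replicate 8. DESeq2 called 1862 genes, of which 1787 were shared and had the same sign. Scaling to the spike-ins gave 5565 genes and, in an alternative chosen after seeing the data, 1198 without D3 replicate 3. Leaving out libraries gave 252 to 542 genes between D3 and D2, with the lowest counts without D2 replicate 1, 3 or 4 (252, 262 and 264) and D3 replicate 2 (298), 919 to 1290 between D3 and D1, and 660 to 945 between 10 and 0.1 nM. The cause was not tested. The replicate numbers did not pair the libraries throughout, since the correlations of same-numbered deviations ran from −0.253 to 0.488. The highest was between replicates 3 of D3 at 10 and at 0.1 nM. Replicate 2 of D3 at 10 nM was closest to replicate 2 of mock, D2 and D1, with weak correlations (0.095, 0.096 and 0.12). A structure shared by some same-numbered libraries therefore remains possible and was not tested. As a block the numbers gave 1673 genes against mock, 547 against D2, 1123 against D1 and 1289 against 0.1 nM (948 without the block). Of the 221 genes named, 74 changed sign by the construction of the spike-in scale. The 56 of these that were called on either scale had log2 fold changes of Actb −0.53, Actn1 −0.20, Agrn −0.14, Alb −0.35, Amotl2 −0.015, Apoa1 −0.21, Apoa2 −0.19, Bhlhe40 −0.22, Bmpr1a −0.51, C1ra −0.24, C3 −0.18, Cdkn1a −0.30, Cfi −0.31, Col18a1 −0.21, Cry2 −0.083, Cyp2c70 −0.15, Cyp2d10 −0.031, Egr1 −0.067, Fgg −0.080, Flot1 −0.16, Ftl1 −0.27, Ghr −0.49, Grhpr −0.52, Hnf4a −0.51, Hoga1 −0.13, Id1 −0.19, Id2 −0.057, Igf1 −0.28, Itih4 −0.30, Lamb3 −0.019, Lcn2 −0.22, Mat1a −0.17, Met −0.28, Myc −0.29, Ndufv2 −0.29, Nfkbia −0.12, Osgin1 −0.26, Per1 −0.19, Por −0.20, Saa1 −0.30, Saa2 −0.17, Sik1 −0.17, Slc2a1 −0.27, Slc3a2 −0.32, Slc40a1 −0.32, Srebf1 −0.29, Srebf2 −0.35, Tfr2 −0.17, Tnfaip3 −0.27, Ugt2b35 −0.0047, Vcam1 −0.20, Vtn −0.26, Wfs1 −0.15, mt-Cytb −0.31, mt-Nd1 −0.38, mt-Nd4 −0.33. Under the other settings no gene called in either fit changed sign, while up to 6 genes called in neither did, and calls were lost for 29 genes with the replicate block, 27 and 26 with the first and second run alone, 9 with all groups in one fit, 6 with DESeq2, 5 without a filter and 1 with RLE scaling. Among small changes whose call was lost without single libraries, the values nearest 0 were C1ra 0.23, Cfi 0.19, Flot1 0.27, Asgr1 0.68, Icam1 −0.23, Ndufv1 −0.19, Ndufv2 0.19, Pck2 −0.32, Rpl28 −0.14, Rps4x −0.13, Scd2 −0.17, Srebf2 0.16, Stard4 −0.16, Tnfaip3 0.21, Vcam1 0.21 and mt-Nd1 0.10. Genes near 1 CPM, such as Hao1 with D3, rest on a few counts per library.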

Other observations

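Other gene groups with D3 at 10 nM, described by their counts, were split. Over all genes tested, 8.9% were lower and 8.54% higher. Of 17 circadian clock genes, 4 were lower than in mock and 4 higher (23.5% each). The nuclear receptors Nr1d1, Nr1d2 and Rora, which set the rhythm of Bmal1 transcription, had log2 fold changes of −0.82, −0.53 and −0.39 and Clock −0.29, while the repressors Per2, Cry2, Per1 and Bhlhe40 had 0.63, 0.41, 0.33 and 0.33. Of these, Nr1d1 was not called without D3 replicate 1, 3 or 4 or mock replicate 3, 5 or 8 (nearest 0 at −0.69, without D3 replicate 1). Per2 was not called without any one of 9 libraries, D3 replicates 2 and 3 and mock replicates 2 to 8, and fell to 0.39 without D3 replicate 2. Cry2 was not called without D3 replicate 4 (0.28), nor Per1 without D3 replicate 2 (0.26). Of 16 hypoxia targets, 3 were lower (18.8%) and 2 higher (12.5%), with the angiogenic factor Vegfa at −0.70, Hif1a at −0.43 and Ndrg1 at −0.18, and adrenomedullin, Adm, at 0.86 and the glucose transporter Slc2a1 at 0.27. Adm was not called without D3 replicate 2 or 3 (0.76 and 0.77), nor Ndrg1 without D3 replicate 1, 2 or 4 or mock replicate 5 (−0.14 without D3 replicate 1). Directly against D2, Vegfa differed by −0.62 and Hif1a by −0.22.

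Of 24 targets of p53, 5 were higher (20.8%) and 3 lower (12.5%). The largest increase was that of the antiproliferative gene Btg2 at 0.90, and the cell cycle inhibitor Cdkn1a had 0.24. The decreases were in Ei24 and Trp53inp1, at −0.42 each, and in Phlda3, at −0.31 (adjusted p = 0.0408, edgeR). Of 28 conjugation enzymes, the sulfotransferase Sult1a1 and the glucuronosyltransferases Ugt2b36 and Ugt2b35 were higher, at 0.83 (not called without D3 replicate 1 or 4, at 0.74 and 0.64), 0.84 and 0.49, and the glutathione transferases Gsta1 and Gsta2 lower, at −0.59 and −0.55, or 10.7% higher and 7.14% lower. Of 22 genes of iron and haem, Hamp, Tfr2, Ftl1 and Slc40a1 were higher, at 1.95, 0.34, 0.26 and 0.21, and Blvrb, Blvra and Fth1 lower, at −0.42, −0.40 and −0.26, or 18.2% and 13.6%. Blvra was not called without D3 replicate 1 or 4 (−0.38 and −0.40), nor Slc40a1 without D3 replicate 1 or mock replicate 7 (0.197 and 0.18).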
